A study of Homo sapiens with 6 samples.

Results

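The immediate-early AP-1 and EGR genes examined here were FOS, FOSB, JUN, JUNB, JUND, ATF3, EGR1, EGR2, EGR3 and IER2. They were taken as a list of names, 10 of the 19812 protein-coding genes of the annotation, and the rule itself uses no peak value, although the list was drawn up with earlier results of these data known. For each gene, every SUMO-2/3 peak from 10 kb upstream to 10 kb downstream was collected from the mock, Ara-C and DNR peak lists. These windows added up to 298 kb of hg19 and ran from 21.8 kb at JUNB to 75.4 kb at ATF3. JUNB, IER2, JUND and FOSB lie on chromosome 19, and JUN and ATF3 lie on chromosome 1. The mock list of 44265 peaks placed 23 in these windows, the Ara-C list of 72279 placed 41 and the DNR list of 33355 placed 10.

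Immediate-early genes are transcribed within minutes of a stimulus without new protein synthesis, and their products are mostly transcription factors. FOS and JUN family proteins pair through leucine zippers to form AP-1, ATF3 pairs with the same partners or with itself, and the EGR proteins bind GC-rich DNA through zinc fingers. Many of these promoters are switched on by serum response factor at CArG boxes. SUMO-2/3 are small ubiquitin-related proteins that are attached to lysines of chromatin-bound proteins, among them transcription factors, and the FOS and JUN proteins are themselves known to carry SUMO.

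The data came from HL-60, a human acute myeloid leukaemia line. The cells received water (mock), 2 µM cytosine arabinoside (Ara-C), a nucleoside analogue that stops DNA synthesis, or 1 µM daunorubicin (DNR), an anthracycline that intercalates into DNA and poisons topoisomerase II, for 2 h each. SUMO-2/3-bound chromatin was then immunoprecipitated and sequenced (ChIP-seq), with 3 biological replicates pooled into 1 library per condition. The study asked how the drugs change the distribution of SUMO on chromatin, and the lists answer this for a gene only as the presence, position and width of its peaks.

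Each condition had 1 library, so no difference between conditions below has a replicate check and no test was made. A peak is a run of signal above a fixed value, at least 150 bp long on a grid of 50 bp. The lists hold no height and no read number, so sequencing depth is unknown here, and depth and treatment cannot be told apart. The whole Ara-C list was 1.63 times as long as the mock list, and the DNR list 0.754 times as long. Intervals are 95% intervals and cover counting error only. Neighbouring peaks are not independent of each other.

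SUMO-2/3 peaks were denser around these genes than in the flanking chromosome in the mock and Ara-C lists, and less clearly so in the DNR list. In mock-treated cells the windows held 23 peaks (exact Poisson interval 14.6 to 34.5), where the density of the 1 Mb on either side gave 6.63, a ratio of 3.47 (2.20 to 5.20). Under Ara-C they held 41 peaks (29.4 to 55.6) against 9.78, a ratio of 4.19 (3.01 to 5.69). Under DNR they held 10 peaks (4.80 to 18.4) against 4.31, a ratio of 2.32 (1.11 to 4.27). The 3 ratios have overlapping intervals, and the order of mock and Ara-C was not stable. With 20 kb on either side they were 3.52 and 3.37, and with peaks of at least 200 bp both were 3.73. The DNR ratio was 1.74 (0.897 to 3.03) with 20 kb on either side and 1.79 (0.580 to 4.17) without ATF3, and both intervals include equal density. Without ATF3 the mock and Ara-C ratios were 3.54 (2.02 to 5.75) and 5.09 (3.52 to 7.11). Set against the density of the whole chromosome, the ratios were 4.16, 4.84 and 2.51. No such ratio is given for windows around other coding genes, and how much of the excess those windows share was not tested.

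Window peaks relative to mock were more numerous under Ara-C and fewer under DNR at most of the genes, as in the lists as a whole. The Ara-C list had more peaks than the mock list at FOS, FOSB, JUN, JUNB, JUND, EGR1 and IER2, the same number at ATF3 and EGR2, and fewer at EGR3. The DNR list had more at 0 genes, the same number at FOS, EGR2 and EGR3, and fewer at the other 7. Among coding genes no longer than ATF3, 43.0% had more window peaks under Ara-C than in mock and 19.6% fewer, and 16.2% had more under DNR and 42.2% fewer. Summed over the windows, the Ara-C list held 1.78 times as many peaks as the mock list (exact binomial interval 1.04 to 3.11), which spans the 1.63 of the lists as a whole. The DNR list held 0.435 times as many (0.185 to 0.950), which spans the 0.754 of the lists as a whole.

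A window peak was present at 9 of 10 genes in the mock list, 9 in the Ara-C list and 6 in the DNR list. Of all coding genes, 65.0%, 75.3% and 49.7% had one in the same lists. Longer genes have longer windows, so shorter genes form a nearer background: among genes no longer than ATF3, 58.3%, 69.0% and 41.1% had a window peak. Leaving out ATF3, the longest, 8, 8 and 5 of the other 9 genes had one, beside 46.2%, 55.2% and 30.6% of coding genes no longer than JUN, the longest of those 9. The shares among the 10 genes were above these backgrounds in each list, on counts too small to separate the lists. In the DNR list 6 of 10 stood close to the 49.7% of all coding genes, and no difference from a background was tested. The DNR count was 5 genes with 5 kb on either side, and 5 with the peak midpoint required inside the window.

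**Figure D1:**
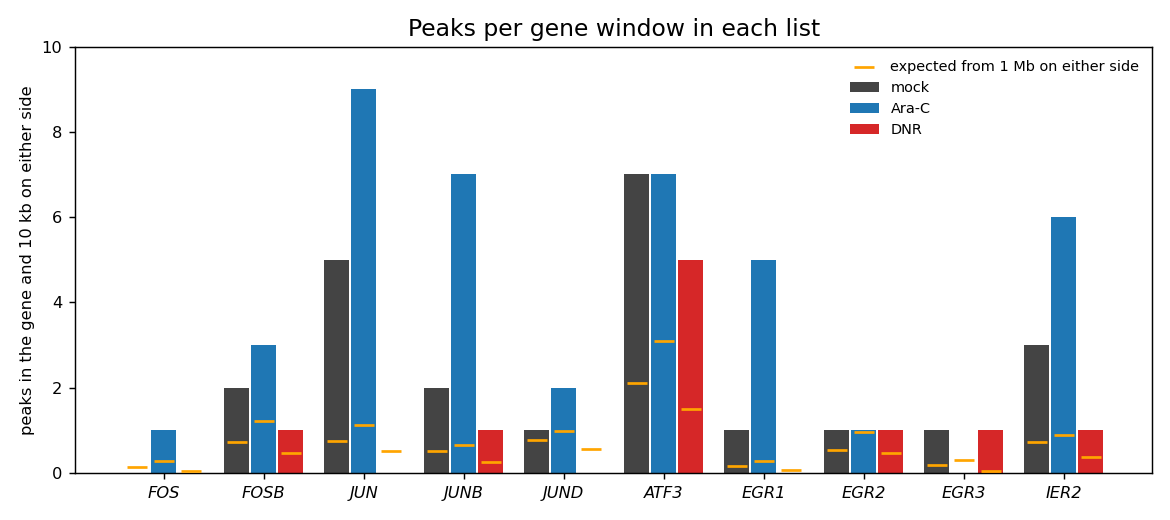
Number of SUMO-2/3 peaks (vertical axis) in the gene and 10 kb on either side for each of the 10 genes, in mock (grey), Ara-C (blue) and DNR (red), with orange lines for the number expected from the peak density of 1 Mb on either side. JUN rises from 5 to 9 peaks and EGR1 from 1 to 5 between the mock and Ara-C lists, and both have 0 in the DNR list.

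**Figure D2:**
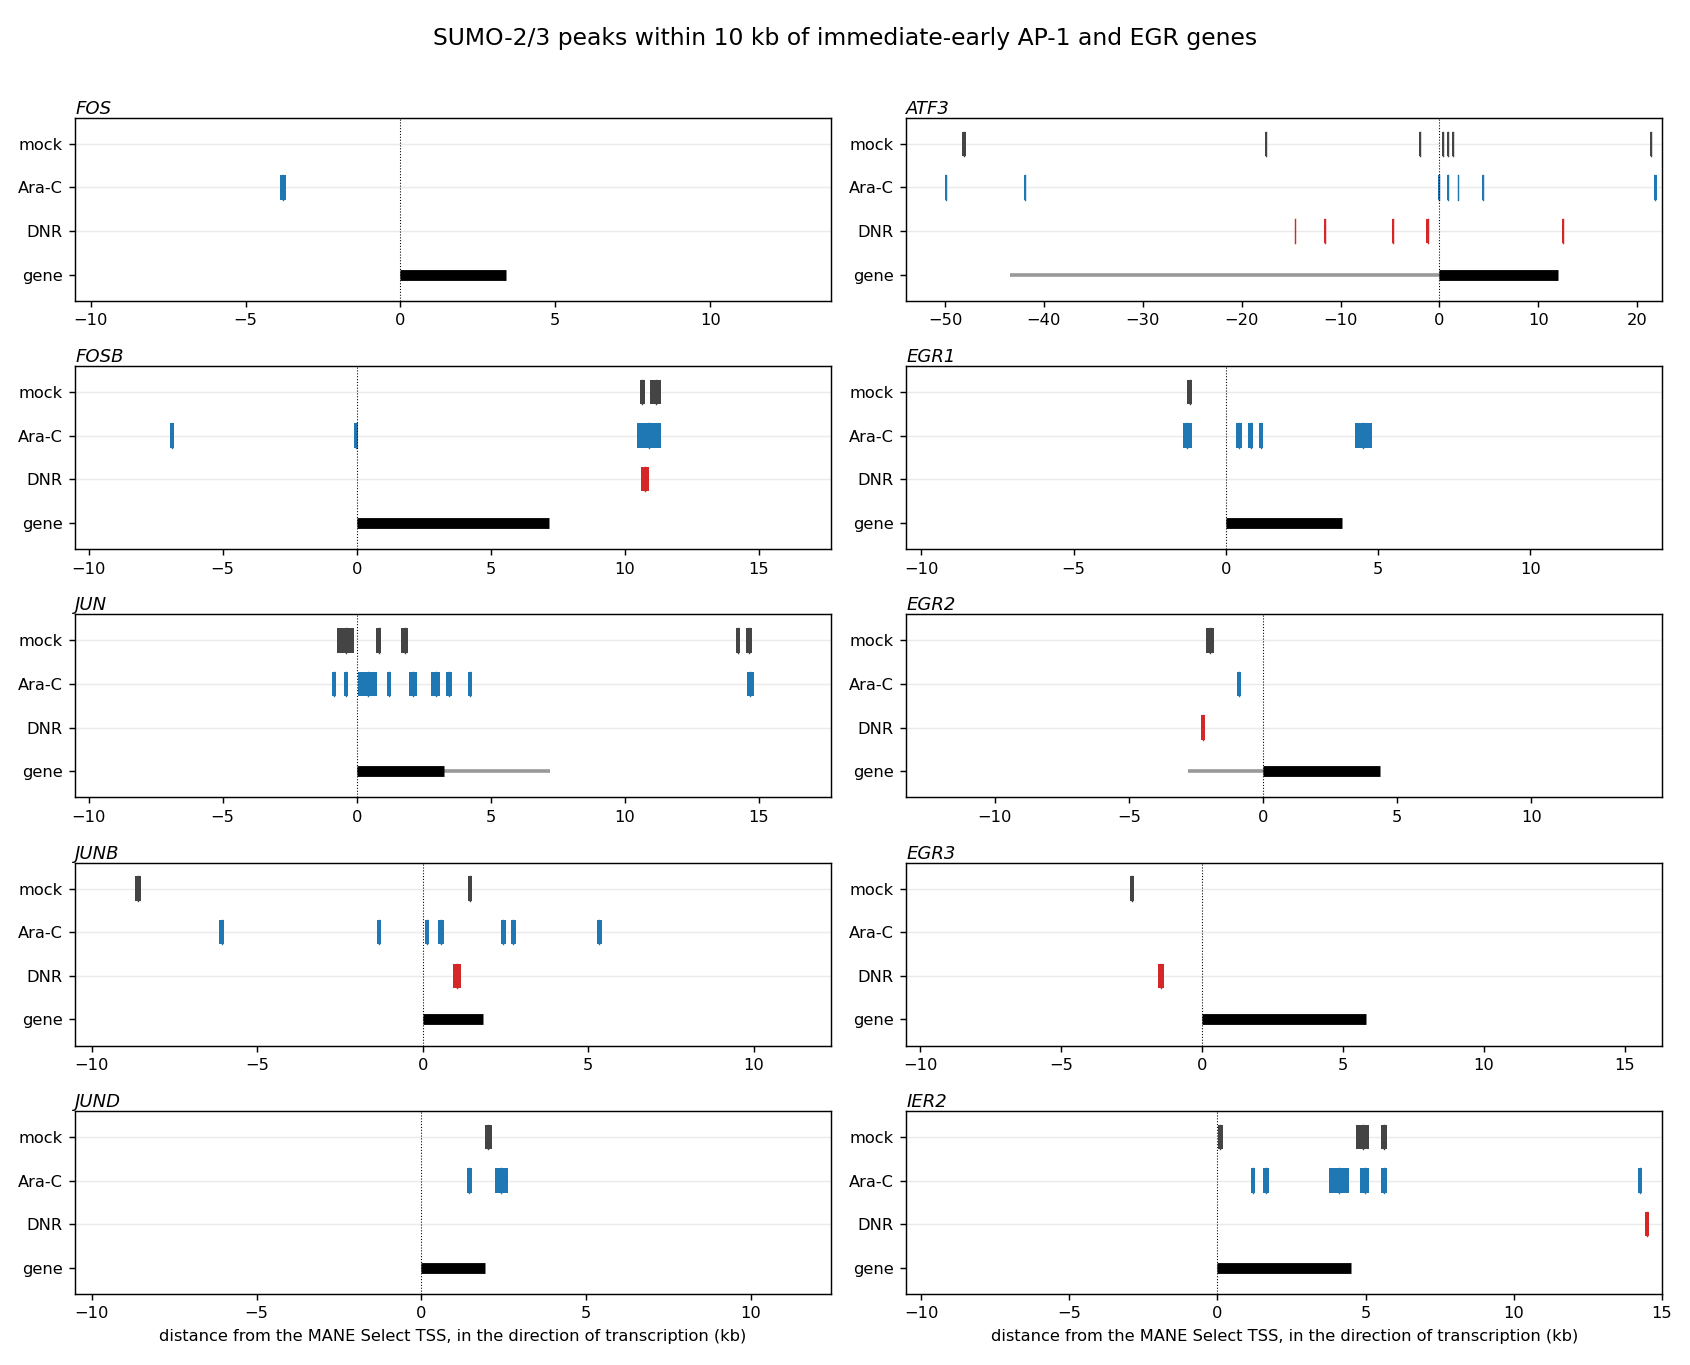
Position and width of every peak (coloured blocks, 1 row for each list) around the 10 genes, with the distance in kb from the transcription start site of the MANE Select transcript on the horizontal axis, the transcript as a black bar and the rest of the annotated gene as a grey line. Ara-C blocks lie over and just past the transcripts of JUN, JUNB, EGR1 and IER2, where mock has fewer blocks and DNR has 1 in all, over JUNB.

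JUN encodes the main DNA-binding partner within AP-1 and had the densest mock and Ara-C windows of the 10 genes. It lies on the minus strand of chromosome 1 (chr1:59242517-59249720), and its MANE Select transcript, the reference transcript agreed by the annotators, starts at 59249719. The window held 5 mock peaks, 9 Ara-C peaks and 0 DNR peaks, which is 184, 331 and 0 peaks per Mb beside 27.5, 41.0 and 18.5 per Mb in the flanks. The nearest DNR peak lay 15832 bp from the start site.

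In mock-treated cells the widest of the JUN peaks spanned 650 bp at chr1:59249801-59250450, beginning 82 bp upstream of the start site. Only 145 mock peaks, 0.328% of the list, were at least as wide. A mock peak of 200 bp lay in the 5′ untranslated part 719 bp downstream of the start, one of 250 bp lay in the coding exon 1669 bp downstream, and peaks of 250 bp and 150 bp lay beyond the 3′ end.

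Under Ara-C more of the JUN peaks lay along the transcript. A peak of 700 bp at chr1:59248951-59249650 began 69 bp inside the transcript, and 133 Ara-C peaks, 0.184% of the list, were at least as wide. It was followed by peaks of 150 bp in the coding exon and of 300 bp and 350 bp in the 3′ untranslated part, with others of 250 bp and 150 bp past the transcript end and one of 250 bp further off. In place of the 650 bp mock peak, the promoter held a pair of 150 bp peaks, 332 bp and 782 bp upstream, of which the nearer lay inside the mock peak. Peaks covered 13.8% of the transcript in mock, 46.1% with Ara-C and 0% with DNR. Among 18922 genes with a MANE Select transcript, 13, JUN included, reached this cover under Ara-C, and 89 reached the mock value in mock. These ranks are over transcripts of all lengths, and a peak covers a larger share of a short one. By number, 13.6% of the genes had at least as many Ara-C peaks on the transcript as the 4 of JUN, and 21.2% at least as many mock peaks as its 2.

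The JUN promoter sequence and the segment next to it that both lists held are shown because the mock peak of 650 bp sat on them. They are given 5′ to 3′ on the gene's own strand, the minus strand of hg19, at chr1:59249720-59250019 and chr1:59250051-59250200. Capitals mark the GC box, GGGCGG on either strand. The mock peak covered positions 1 to 219 of the first, GC boxes included, and the Ara-C peaks covered none of it.
JUN upstream: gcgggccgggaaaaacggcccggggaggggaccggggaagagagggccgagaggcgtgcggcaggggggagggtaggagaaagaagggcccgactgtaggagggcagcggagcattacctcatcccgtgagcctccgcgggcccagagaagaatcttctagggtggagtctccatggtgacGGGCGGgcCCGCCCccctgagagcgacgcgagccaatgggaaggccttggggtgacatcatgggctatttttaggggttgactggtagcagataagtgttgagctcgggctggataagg
JUN shared by mock and Ara-C: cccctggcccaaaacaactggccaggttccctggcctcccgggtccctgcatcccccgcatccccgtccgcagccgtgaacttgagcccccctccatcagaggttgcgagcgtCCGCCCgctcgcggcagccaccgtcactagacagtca

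JUNB, an AP-1 member that can restrain JUN, lies at chr19:12902300-12904129 and was the only one of the 10 genes with a DNR peak on its transcript. Its window held 2 mock peaks, 7 Ara-C peaks and 1 DNR peak, or 91.6, 321 and 45.8 per Mb beside 23.5, 30.0 and 12.0 per Mb in the flanks. No JUNB peak of one list overlapped a peak of another.

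The mock peaks of JUNB were 200 bp wide far upstream and 150 bp wide in the 3′ untranslated part. The Ara-C peaks included 150 bp in the promoter, 1250 bp upstream of the start site, 150 bp in the 5′ untranslated part, 51 bp downstream of it, and 200 bp in the coding exon. The other 4 were of 150 bp each, 1 upstream and 3 past the 3′ end. The DNR peak, chr19:12903201-12903450, was 250 bp wide and lay in the coding exon. Peaks covered 8.20%, 19.1% and 13.7% of this short, single-exon transcript in mock, Ara-C and DNR, values reached by 199, 66 and 20 of the 18922 genes in the same lists. They came from 1, 2 and 1 peaks, numbers that 43.6%, 32.2% and 33.3% of the genes reached.

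JUND, the AP-1 member usually made without a stimulus, lies on the minus strand at chr19:18390504-18392432 and had its peaks at the 3′ end. A mock peak of 200 bp was centred 103 bp past the end. Under Ara-C a peak of 400 bp was centred 503 bp past the end and one of 150 bp lay in the 3′ untranslated part. The transcript cover was 0% in mock, 7.78% with Ara-C and 0% with DNR. No DNR peak came closer than 26032 bp to the start site. The JUND window held 45.6 and 91.2 peaks per Mb in mock and Ara-C beside 35.0 and 45.0 per Mb in its flanks, a smaller excess than at JUN and JUNB.

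FOS encodes the AP-1 partner whose induction defines the immediate-early response, yet it had almost no SUMO-2/3 peak. Its window (gene at chr14:75745529-75748933) held 0 mock peaks, 1 Ara-C peak and 0 DNR peaks. The Ara-C peak was 200 bp wide and lay 3681 bp upstream of the start site. The nearest mock peak was 17470 bp away and the nearest DNR peak 178670 bp away. The flanks of FOS were poor in peaks as well, with 6.0, 11.5 and 1.5 per Mb in mock, Ara-C and DNR.

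FOSB, a FOS relative with a long and a short protein form, lies at chr19:45971253-45978437. Its window held the widest peak of the whole set. In mock-treated cells it held peaks of 200 bp and 400 bp, both past the 3′ end of FOSB. Under Ara-C these positions lay inside a single peak of 900 bp, chr19:45981701-45982600, and only 33 Ara-C peaks, 0.0457% of the list, were at least as wide. The DNR peak there was 300 bp wide, chr19:45981851-45982150. It was the only place in the 10 windows with a peak in all 3 lists. The 400 bp mock peak, the Ara-C peak and the DNR peak touch the promoter of ERCC1, the neighbouring DNA repair gene. The nearer mock peak lay 10547 bp from the FOSB start site, and position alone does not assign these peaks to FOSB.

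At FOSB itself, an Ara-C peak of 150 bp, chr19:45971151-45971300, covered the start site, and another of 150 bp lay upstream. Mock and DNR had no peak at the FOSB promoter or transcript. The FOSB promoter sequence is shown because its start site is one of a pair, with that of ATF3, that lay under an Ara-C peak. It is the plus strand of chr19:45970953-45971252 in hg19. Capitals mark a CArG box at positions 28 to 37 and GC boxes at 235 to 240 and 256 to 261. The Ara-C peak covered positions 199 to 300, so the GC boxes lay inside it and the CArG box outside.
FOSB upstream: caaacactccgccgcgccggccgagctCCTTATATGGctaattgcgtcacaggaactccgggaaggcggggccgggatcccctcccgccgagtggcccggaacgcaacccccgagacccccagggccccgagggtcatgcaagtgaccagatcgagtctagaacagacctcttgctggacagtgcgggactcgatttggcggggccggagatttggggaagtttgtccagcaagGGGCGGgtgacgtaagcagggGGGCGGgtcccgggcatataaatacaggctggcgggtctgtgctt

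ATF3 encodes a stress-induced factor of the ATF family. Its gene is much longer than the others (chr1:212738676-212794119), and its MANE Select transcript uses an inner start site at 212782103. The window held 7 mock, 7 Ara-C and 5 DNR peaks, or 92.8, 92.8 and 66.3 per Mb beside 28.0, 41.0 and 20 per Mb in the flanks. ATF3 thus supplied 5 of the 10 DNR peaks of the set.

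In mock-treated cells 3 ATF3 peaks of 150 bp lay in an intron of the MANE Select transcript, 248 bp, 748 bp and 1248 bp downstream of the start site, and another of 150 bp lay 1903 bp upstream. The widest, 400 bp, lay upstream of the whole gene, and the other 2 lay within the longer transcripts (150 bp) and past the 3′ end (300 bp). Under Ara-C a peak of 200 bp, chr1:212781951-212782150, covered the start site. The mock peak at chr1:212782851-212783000 was present under Ara-C at exactly the same bases, and 2 further Ara-C peaks of 150 bp lay in introns. The remaining Ara-C peaks lay upstream of the whole gene (250 bp), within the longer transcripts (150 bp) and past the 3′ end (300 bp). Under DNR a peak of 300 bp lay 1053 bp upstream of the start site, 3 peaks of 150 bp lay further upstream within the longer transcripts, and one of 250 bp lay past the 3′ end. No DNR peak at ATF3 overlapped a mock or an Ara-C peak. The transcript cover was 3.75%, 4.14% and 0% in mock, Ara-C and DNR.

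The ATF3 promoter and the intronic segment held by mock and Ara-C are given on the plus strand of hg19, at chr1:212781803-212782102 and chr1:212782851-212783000, with GC boxes in capitals. Positions 149 to 300 of the promoter lay under the Ara-C peak, past its only GC box at positions 30 to 35.
ATF3 upstream: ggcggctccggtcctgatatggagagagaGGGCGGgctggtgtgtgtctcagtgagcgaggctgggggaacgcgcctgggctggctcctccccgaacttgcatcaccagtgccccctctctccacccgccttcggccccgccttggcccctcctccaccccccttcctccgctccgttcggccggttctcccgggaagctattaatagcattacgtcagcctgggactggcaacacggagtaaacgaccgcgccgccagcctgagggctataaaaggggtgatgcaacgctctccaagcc
ATF3 shared by mock and Ara-C: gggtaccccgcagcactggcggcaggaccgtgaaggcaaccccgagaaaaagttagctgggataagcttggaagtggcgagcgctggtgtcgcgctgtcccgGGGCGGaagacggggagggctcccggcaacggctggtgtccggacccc

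EGR1, the founding zinc-finger factor of its family, lies at chr5:137801168-137804992 in a stretch poor in peaks. Its window held 1 mock peak, 5 Ara-C peaks and 0 DNR peaks, or 42.0, 210 and 0 per Mb beside 6.59, 12.2 and 3.04 per Mb in the flanks. The mock peak was 150 bp wide and ended 1118 bp upstream of the start site. Under Ara-C it was wider to the upstream side, 300 bp, with the same downstream edge. The other Ara-C peaks were one of 200 bp in the coding exon, 333 bp downstream of the start, 2 of 150 bp in the intron, and one of 550 bp centred 683 bp past the 3′ end. Of all Ara-C peaks, 439 (0.607%) were at least as wide as the last. The transcript cover was 0% in mock, 13.1% with Ara-C and 0% with DNR, and 117 of 18922 genes reached the Ara-C value, while 20.4% had at least 3 Ara-C peaks on the transcript as EGR1 did. The nearest DNR peak lay 197833 bp from the start site.

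The EGR1 promoter (plus strand, chr5:137800868-137801167) and the upstream segment held by mock and Ara-C (plus strand, chr5:137799901-137800050) are shown because the peaks passed over the first and lay on the second. Capitals mark an EGR site, GCGNGGGCG, at positions 103 to 111 and CArG boxes at 196 to 205 and 218 to 227. The shared segment held no exact match to the motifs searched, and near matches were not counted.
EGR1 upstream: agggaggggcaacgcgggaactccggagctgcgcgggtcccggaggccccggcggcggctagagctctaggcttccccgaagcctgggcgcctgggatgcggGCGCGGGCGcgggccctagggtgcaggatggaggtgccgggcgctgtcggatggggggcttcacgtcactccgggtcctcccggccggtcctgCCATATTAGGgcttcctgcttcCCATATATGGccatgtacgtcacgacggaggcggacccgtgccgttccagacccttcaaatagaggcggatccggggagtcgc
EGR1 shared by mock and Ara-C: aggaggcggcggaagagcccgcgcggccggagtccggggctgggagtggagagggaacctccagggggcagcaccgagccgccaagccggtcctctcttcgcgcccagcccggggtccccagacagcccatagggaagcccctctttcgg

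EGR2, an EGR family factor known from myelin formation and immune cells, had 1 peak in each list, none overlapping another (gene on the minus strand at chr10:64571756-64578927). The mock peak was 300 bp wide and 1825 bp upstream of the MANE Select start site, the Ara-C peak 150 bp wide and 825 bp upstream, and the DNR peak 150 bp wide and 2175 bp upstream, where it covered another annotated start site of EGR2. EGR3, the family member best known from neurons and lymphocytes, had a mock peak of 150 bp lying 2408 bp upstream and a DNR peak of 200 bp lying 1358 bp upstream (gene on chromosome 8, minus strand). It was the one gene without an Ara-C peak in the window, and the nearest lay 88743 bp away. Neither EGR2 nor EGR3 had a peak on its MANE Select transcript in any list.

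IER2 encodes a small nuclear protein that is induced with FOS and JUN and lies at chr19:13261225-13265725. Its window held 3 mock peaks, 6 Ara-C peaks and 1 DNR peak, or 122, 245 and 40.8 per Mb beside 29.5, 36.0 and 15.5 per Mb in the flanks. In mock a peak of 150 bp began 26 bp downstream of the start site, and peaks of 450 bp and 200 bp lay past the 3′ end. Under Ara-C the peak at the start was absent, and peaks of 150 bp, 200 bp and 650 bp lay over the transcript. The 650 bp peak, chr19:13265001-13265650, lay in the 3′ untranslated part, and 201 Ara-C peaks (0.278%) were at least as wide. The mock peak at the start site and the first Ara-C peaks of the transcript also touch the promoter of STX10, a neighbouring gene of vesicle transport. The transcript cover was 3.33% in mock, 22.2% with Ara-C and 0% with DNR, with 53 of 18922 genes at or above the Ara-C value, which came from 3 peaks as at EGR1.

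Past the 3′ end of IER2, mock and Ara-C shared a peak of 200 bp at exactly the same bases, chr19:13266751-13266950, and the 450 bp mock peak contained the 300 bp Ara-C peak at chr19:13266051-13266350. The first is printed on the plus strand of hg19 because both lists held all of it. It held no exact match to the motifs searched, and near matches were not counted. The single DNR peak, of 150 bp, lay across the far edge of the window, partly outside it. With the peak midpoint required inside the window, the DNR list held 9 window peaks at 5 genes.
IER2 shared by mock and Ara-C: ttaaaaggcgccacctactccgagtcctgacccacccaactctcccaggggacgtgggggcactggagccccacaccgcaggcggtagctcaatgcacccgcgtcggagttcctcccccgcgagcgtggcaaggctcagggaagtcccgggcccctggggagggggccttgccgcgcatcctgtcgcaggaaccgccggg

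Across the set, peaks covered more of the transcripts and of the 3 kb past them under Ara-C than in mock, while the comparison at the promoters depended on single genes. A peak on the MANE Select transcript was present at JUN, JUNB, ATF3 and IER2 in mock (4 of 10), at these and FOSB, JUND and EGR1 under Ara-C (7 of 10), and at JUNB alone under DNR (1 of 10). Among the 6390 coding genes with a transcript no longer than the longest of the 10, 12015 bp, these shares were 20.4%, 27.0% and 11.2%. Transcript cover was higher under Ara-C than in mock at 7 of 10 genes and lower at 0, beside 20.8% and 12.8% of those coding transcripts. It was higher under DNR than in mock at 1 gene, JUNB, and lower at 3, JUN, ATF3 and IER2, beside 8.65% and 17.9%. Of the 7 increases under Ara-C, those at FOSB (from 0% to 0.654%) and ATF3 (from 3.75% to 4.14%) were small.

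Summed over the 10 transcripts, peaks covered 2.49% of the bases in mock, 8.40% with Ara-C and 0.519% with DNR, beside 0.859%, 1.21% and 0.424% over the coding genes of like length. The Ara-C value was 3.37 times the mock value over the 10 transcripts and 1.41 times over the coding genes. Leaving out each gene in turn gave 2.90 times (without IER2) to 4.73 times (without ATF3), and without JUN, the gene with the highest cover, the values were 5.67% and 1.67%. The DNR value rested on the JUNB peak and was 0% without it. In the 3 kb past the 3′ end the cover was 2.83%, 7.17% and 0.833%, beside 1.01%, 1.28% and 0.405%. Without IER2 these were 0.741%, 6.11% and 0.926%, so that DNR was no longer below mock, and without ATF3 the DNR value was 0%.

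The promoter cover was taken over the 2 kb upstream of the MANE Select start site only, unlike the promoter counts below. It was 5.37% in mock and 5.78% under Ara-C, 1.08 times as high, beside 1.92% and 2.22%. Under DNR it was 2.50% beside 0.427%. The JUN mock peak of 650 bp carried much of the mock value. Without JUN the promoter cover was 2.35% in mock, 4.76% under Ara-C, 2.02 times as high, and 2.78% under DNR, which was then above mock. Without EGR1, JUNB or FOSB the Ara-C value was 0.927, 0.938 or 0.980 times the mock value. Without ATF3 or EGR3 the DNR value was 1.11% or 1.67%.

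**Figure D3:**
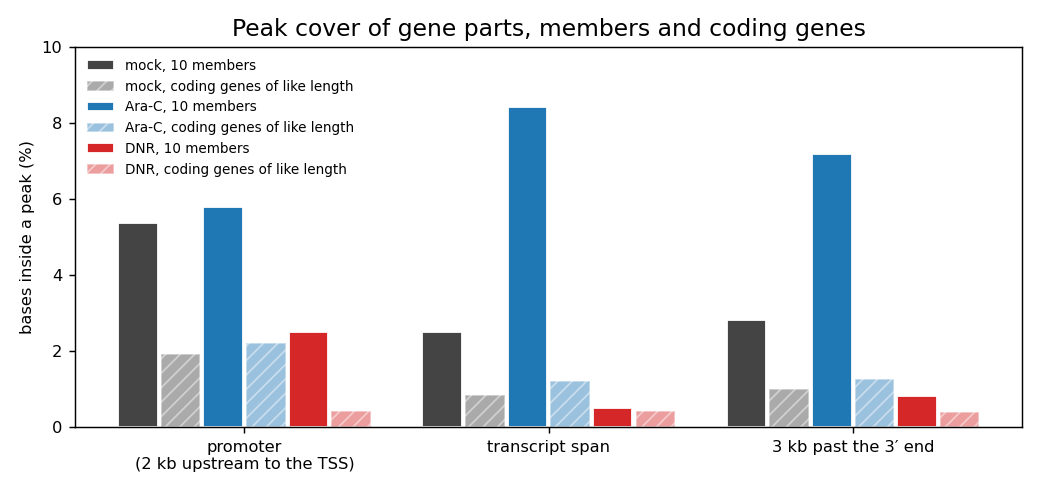
Percent of bases inside a SUMO-2/3 peak (vertical axis) in the promoter, the transcript span and the 3 kb past the 3′ end, for the 10 genes together (solid bars) and for coding genes of like transcript length (hatched bars), in mock, Ara-C and DNR. The Ara-C bar of the 10 genes stands at 8.40% over the transcripts beside 2.49% in mock, while the promoter bars stand at 5.78% and 5.37%, or 4.76% and 2.35% without JUN.

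**Figure D4:**
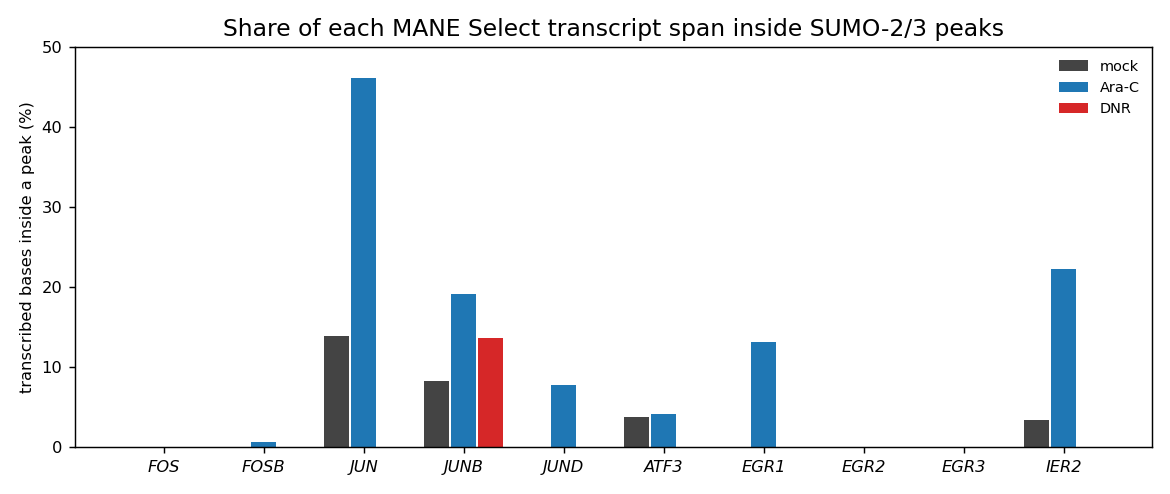
Percent of each MANE Select transcript span (exons and introns) inside a peak (vertical axis) for the 10 genes in mock, Ara-C and DNR. JUN reaches 46.1%, IER2 22.2%, JUNB 19.1% and EGR1 13.1% in the Ara-C list, and FOS, EGR2 and EGR3 are at 0% in all 3 lists.

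Counted by peak midpoints, 7 mock peaks in 4 genes, 16 Ara-C peaks in 6 genes and 1 DNR peak in 1 gene lay on a transcript, beside 17.5%, 23.8% and 11.0% of the coding genes of like length with such a peak. A further 3, 8 and 1 peaks were centred within 1500 bp past a 3′ end, in 2, 5 and 1 genes, beside 6.7%, 9.03% and 3.32% of those coding genes. FOS, FOSB, EGR2 and EGR3 had no peak midpoint on the transcript in any list.

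A promoter peak, sharing at least 1 bp with the 2 kb upstream of any coding start site of the gene, was present at 5 genes in the mock list, 7 in the Ara-C list and 3 in the DNR list. Over all coding genes these shares were 20.6%, 25.3% and 6.0%. In mock the 5 were JUN, ATF3, EGR1, EGR2 and IER2. The Ara-C list had these and FOSB and JUNB, and the DNR list had ATF3, EGR2 and EGR3. The counts include inner start sites, such as those of IER2 downstream of its first exon. With only the 5′ end of each gene they were 2, 4 and 1, beside 15.9%, 19.3% and 4.51% of coding genes. With peaks of at least 200 bp they were 2, 3 and 2, beside 14.6%, 18.1% and 2.98%, so that mock and DNR were then equal.

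Many of the mock and Ara-C peaks lay within 2 kb of the reference start sites, and few on the sites themselves. Within 2 kb lay 12 of 23 mock peaks at 7 genes, 20 of 41 Ara-C peaks at 8 genes and 3 of 10 DNR peaks at 3 genes, beside 24.9%, 30.4% and 8.42% of all genes with such a peak. A peak within 500 bp of the MANE Select start site was present at JUN, ATF3 and IER2 in mock, at FOSB, JUN, JUNB, ATF3 and EGR1 under Ara-C, and at 0 genes under DNR, beside 16.6%, 19.7% and 2.90% of all genes. The start site itself was under a peak at 0, 2 and 0 genes, beside 5.52%, 6.78% and 0.338%.

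Fewer of the mock peaks overlapped a DNR peak than an Ara-C peak. Of the 23 mock peaks, 9 (39.1%, Wilson interval 22.2 to 59.2) shared at least 1 bp with an Ara-C peak, at FOSB, JUN, ATF3, EGR1 and IER2. Over all mock peaks the share was 16.1%, below this interval, and over those touching a coding promoter it was 40.9%, inside it, although only 5 of the 23 touch a promoter of their own gene. With DNR, 1 of the 23 (4.35%, 0.772 to 21.0) overlapped, at FOSB, beside 3.38% of all mock peaks and 4.49% of those at promoters. Counting a peak within 500 bp as found again, the shares were 65.2% for Ara-C and 17.4% for DNR, beside 23.5% and 7.11% of all mock peaks. Read from the other side, 8 of 41 Ara-C peaks (19.5%, 10.2 to 34.0) met a mock peak, as did 1 of 10 DNR peaks (10.0%, 1.79 to 40.4), beside 9.82% and 4.48% of the whole lists.

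Merging touching peaks gave 64 separate regions. Of these, 33 (51.6%) were in the Ara-C list alone, 14 (21.9%) in mock alone, 9 (14.1%) in DNR alone, 7 (10.9%) in mock and Ara-C, and 1 (1.56%) in all 3. Over the merged regions of the whole lists these shares were 45.7%, 26.0%, 21.9%, 4.49% and 0.574%, so most regions belonged to a single list there as well. The region in all 3 was the one at the ERCC1 promoter past FOSB.

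Peaks around these genes included more wide ones than the lists as a whole. At least 300 bp was reached by 6 of 23 in mock (26.1%, beside 9.72% of the list), by 10 of 41 under Ara-C (24.4%, beside 7.93%) and by 2 of 10 under DNR (20%, beside 5.26%). The list shares are not matched for distance to a start site, and the part of placement near start sites in the excess was not tested. The shortest width, 150 bp, was held by 10 (43.5%), 22 (53.7%) and 5 (50%) peaks, beside 52.1%, 51.5% and 56.3% of the lists. The widest were of 650 bp in mock (JUN), 900 bp under Ara-C (at the ERCC1 side of FOSB) and 300 bp under DNR. Peaks added up to 5.5 kb, 10.0 kb and 2.05 kb.

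The 300 bases upstream of the start sites were searched on both strands for the CArG box, the cyclic AMP response element TGACGTCA, the AP-1 site TGANTCA, the EGR site GCGNGGGCG, the GC box GGGCGG and the core of the CTCF motif. An EGR site followed by a G also holds a GC box, and such matches count for both. A match is an exact run of these letters and not a measured binding site. Variants of the motifs and bases further upstream were not searched, so a gene without a match may still hold such a site. The CArG box was present at FOSB, EGR1, EGR2 and EGR3, 4 of 10, and in 1.39% of the 18922 promoters of this length. The GC box was present at FOS, FOSB, JUN, JUND, ATF3 and IER2, 6 of 10, beside 61.9%. The EGR site was present at EGR1 alone (13.7% of promoters) and TGACGTCA at JUND alone (2.61%). The AP-1 site (5.73%) and the CTCF core (0.370%) matched in 0 of the 10.

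The central 150 bp of the peaks held GC boxes at 5 of 23 places in mock, 11 of 41 under Ara-C and 0 of 10 under DNR, beside 5.78%, 4.69% and 3.02% of the lists. EGR sites were in 0, 4 and 0 of them, beside 0.477%, 0.360% and 0.204%, and the 4 were Ara-C peaks at JUNB (2), JUND and EGR1. The AP-1 site was in 2, 1 and 2, beside 5.43%, 5.43% and 5.08%. No peak centre held an exact match to the CArG box, TGACGTCA or the CTCF core, and near matches were not counted. In the lists the CTCF core was in 2.13%, 1.27% and 0.414%. Over whole peaks, GC boxes were in 6, 15 and 2 peaks, beside 7.81%, 6.24% and 3.81% of the lists, and the AP-1 site in 2, 3 and 3, beside 6.88%, 6.87% and 6.0%. The CArG box was then in 1, the 400 bp Ara-C peak past JUND, beside 1.08% of the Ara-C list, and the EGR site counts were the same as in the centres. These peaks were richer in G and C than the lists, with median shares of 58.0%, 60.7% and 55.0% beside 46.0%, 44.7% and 44.7%, and the part of base composition in the GC box and EGR site counts was not tested.

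Promoter peaks were also counted at 59 related genes, a list of AP-1 and EGR partners, other immediate-early genes and upstream regulators. A promoter peak was present at 20 of them (33.9%) in mock, 20 (33.9%) with Ara-C and 3 (5.08%) with DNR, beside the shares of all coding genes given above. Mock and Ara-C shared 11 genes and mock and DNR 2. Among the 14 partners the numbers were 4, 2 and 0, among the 31 other immediate-early genes 11, 11 and 3, and among the 14 regulators 5, 7 and 0.

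DUSP1, a phosphatase that switches off MAP kinases, was the only one of the 59 with a promoter peak in all 3 lists. Its widest peak measured 550 bp in mock and 200 bp in both treated lists. The other DNR promoter peaks were at KLF4, a zinc-finger factor, and TNFAIP3, an inhibitor of NF-κB signalling, of 200 bp each. The next widest in mock were at MAFG, a small MAF protein (500 bp), and DUSP6, another MAP kinase phosphatase (450 bp). Under Ara-C the widest were at DUSP6 (600 bp) and MRTFA, a coactivator of serum response factor (450 bp).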

How the data were processed

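The files used were the peak lists of 3 SUMO-2/3 ChIP-seq libraries, and the 3 inputs were not used here. The values deposited by the authors are positions of peaks, with no score. They aligned single-end reads to hg19 (CASAVA 1.8.2), kept unique reads, removed piled-up reads (threshold 5 in mock, 4 in the treated libraries), extended reads to 210 bp (220 bp for DNR), binned at 50 bp, scaled, subtracted input with Pasha, and called runs above 32 with gaps of at most 100 bp. With one fixed value in every library, peak numbers move with depth and scaling.

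Genes came from GENCODE 44 lifted to GRCh37, and peak starts and ends are 1-based. All 10 genes are named; of the 59 related genes, those with promoter peaks in all lists and the 3 widest in each list, except that the third place under Ara-C, a tie, is not reported here. Members and lists were chosen with earlier results of these data known. Alternatives changed widths, windows, gene models and overlap rules. Overlaps were checked against bedtools 2.31.1 (0 differences), and the counting and motif steps were tested on simulated data. Python 3.11.15, pandas 2.3.3, scipy 1.17.1 and pysam 0.24.0 were used.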

Additional observations from a re-analysis of the deposited data

How the results depend on the processing

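Of 80 values recomputed under 13 alternatives for 14 results, 70 stayed within the limits set for them, 10 moved and 0 changed direction, which was judged for each list on its own. The order of the mock and Ara-C ratios to the local density did turn, with 3.52 and 3.37 for 20 kb on either side. Keeping only peaks of at least 200 bp left 13 window peaks in the mock list, 19 in the Ara-C list and 5 in the DNR list, with promoter peaks at 2 genes in mock, 3 with Ara-C and 2 with DNR, as the construction of this alternative removes the narrow peaks. With 20 kb on either side the mock windows held 37 peaks. With only the 5′ end of each gene as its start site, a promoter peak was present at 2, 4 and 1 genes in mock, Ara-C and DNR, since fewer start sites were searched. Allowing a gap of 500 bp, 65.2% of mock window peaks had an Ara-C peak and 17.4% a DNR peak, and the cause of the other moves was not tested. Windows around the MANE Select transcripts, the set without JUN, the ratio without ATF3 and the peak cover without each gene in turn were chosen after seeing the data. The first 2 moved none of the results recomputed under them beyond the limits, which leaves out the promoter counts for both and the count of genes with a window peak for the set without JUN. The last 2 are given in the report. No paired analysis was possible because the lists come from 1 library per condition, with no replicate numbers to pair. Without read numbers, a gene with no peak is one with no run above the calling value, and a lower signal there was not detectable from these lists.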
